A study of Mus musculus with 8 samples.

Results

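The spliceosome and hnRNP genes are the parts list of the machine that removes introns from messenger RNA precursors. They were taken from the deposited array table by gene symbol, as every gene whose symbol starts with Srsf and a digit, Snrp, Sf3a, Sf3b, U2af, Hnrnp or Prpf, with 1 row per gene. The rule uses names and no measured value. It found 63 genes among the 19505 with a symbol, each with a single row, and 61 of them were bright enough to test, among 9920 tested genes.

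The study measured gene expression on Affymetrix arrays in leukaemia stem cells of mice. The tested cells were Pik3ca-/- (KO, 3 arrays), which lack the p110-alpha catalytic subunit of PI3K, and they were compared with WT cells (5 arrays). Both groups carry the MLL-AF9 fusion oncogene and were sorted as GFP+ granulocyte-macrophage progenitors (GMPs) from the bone marrow of transplanted mice. The labels give neither the age of the animals nor the way Pik3ca was deleted, and nothing in them ties an array to its own mouse, so p-values cover the spread between these samples, which may be technical. All values are log2 values as deposited, a difference is KO minus WT on that scale, and a gene was called at a Benjamini-Hochberg adjusted p under 0.05 in limma over all tested genes.

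The spliceosome is assembled anew on each intron from small nuclear ribonucleoproteins (snRNPs), which are short RNAs wrapped in proteins. The U1 particle reads the start of the intron, U2AF and the U2 particle with SF3A and SF3B read its end and branch point, and the tri-snRNP of U4, U5 and U6 brings the catalytic core. SR proteins mostly promote the use of nearby exons, while hnRNPs coat the transcript and often counter them. In human myeloid neoplasms SF3B1, SRSF2 and U2AF1 are recurrent sites of mutation, and growth factor signals through PI3K and AKT have been reported to reach SR proteins through the SRPK kinases.

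Pik3ca itself read 8.73, 9.31 and 9.40 in KO arrays 1 to 3 and 9.48, 9.57, 8.41, 9.51 and 9.58 in WT arrays 1 to 5. Apart from WT array 3, the WT arrays all lay above the KO arrays. Without that array 5.55% of all tested genes were parted so, in either direction. No probe position is given, so Pik3ca did not check the genotype. WT array 3 stood apart, with a mean correlation to the other arrays of 0.921 across genes against 0.968 to 0.972 for the others, so differences are given with and without it. All 8 GMP and primary granule markers, such as Mpo and Elane, were above the filter on dim rows, as were all 5 neutrophil and all 5 monocyte markers, while 0 of 3 measured erythroid and 0 of 4 stromal markers were. Of the markers of other cells the sort could hold, 4 of 4 megakaryocyte and 3 of 3 mast cell and eosinophil genes were above the filter, and 1 of 3 B cell and 1 of 4 T cell genes. The mean level of the GMP markers was 15.1 to 15.4 over the KO arrays and 15.2 to 15.7 over the WT arrays. The mean of the mast cell and eosinophil markers did not overlap between the groups, at 6.04 to 6.82 over the KO arrays and 7.19 to 8.26 over the WT arrays. This mean rests on 3 genes and was 1 of several lists read. Among single tested genes, 3.09% had KO arrays outside the range of the WT arrays. The mean of the megakaryocyte markers was 6.38 to 6.73 over the KO arrays and 6.33 to 9.74 over the WT arrays. The means of the remaining marker lists overlapped. WT array 3 had the highest mean of all arrays for the erythroid (5.59), B cell (5.68), T cell (4.43) and stromal (4.99) markers. The highest KO means were 4.72, 5.27, 4.37 and 4.40, and the median of all rows on WT array 3 was 5.51. For the other lists it was not the highest WT array. The filter asks for at least 3 arrays, so its counts do not speak for a single array. The part of these cells in the values given here was not tested.

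No spliceosome or hnRNP gene was called between KO and WT leukaemia stem cells. With all 8 arrays 0 of 61 passed, beside 0% of all tested genes, and 0 of 61 reached an unadjusted p under 0.05, beside 2.84% of all tested genes. The arrays read bulk RNA, in which fewer cells of a type and less RNA per cell cannot be told apart. In 0 of 61 did the KO arrays lie entirely outside the range of the WT arrays, beside 3.09% of all tested genes. Without WT array 3, 0 of 61 passed, beside 0% of all tested genes, and 0 had an unadjusted p under 0.05, beside 4.68%. Then 1 of 61 genes, Sf3b6, had KO arrays outside the WT range, beside 5.55% of all tested genes.

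The differences were mostly small. Their median was 0.10 with all arrays, with quartiles of -0.05 and 0.24, beside a median of 0.04 and quartiles of -0.16 and 0.26 over all tested genes. Of the 61 genes 39, or 63.9%, were above 0, beside 5553 of all 9920 tested genes. Without WT array 3 the median was 0.01, beside 0.00 over all tested genes, with 34 genes above 0 and 27 below. The extremes were then -0.47 in Prpf3 and 0.54 in Prpf40b. With all arrays they were -0.50 in Sf3a1 and 0.91 in both Prpf38b and Hnrnpr.

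The intervals show what size of change these arrays leave room for. With all arrays the 95% interval of the difference stayed within a 2-fold change either way for 43 of 61 genes and within a 1.5-fold change for 16. Without WT array 3 the counts were 59 and 33, and the exceptions to the 2-fold limit were Prpf3 and Prpf40b. In every one of the 61 genes the interval held 0 in both fits.

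**Figure D1:**
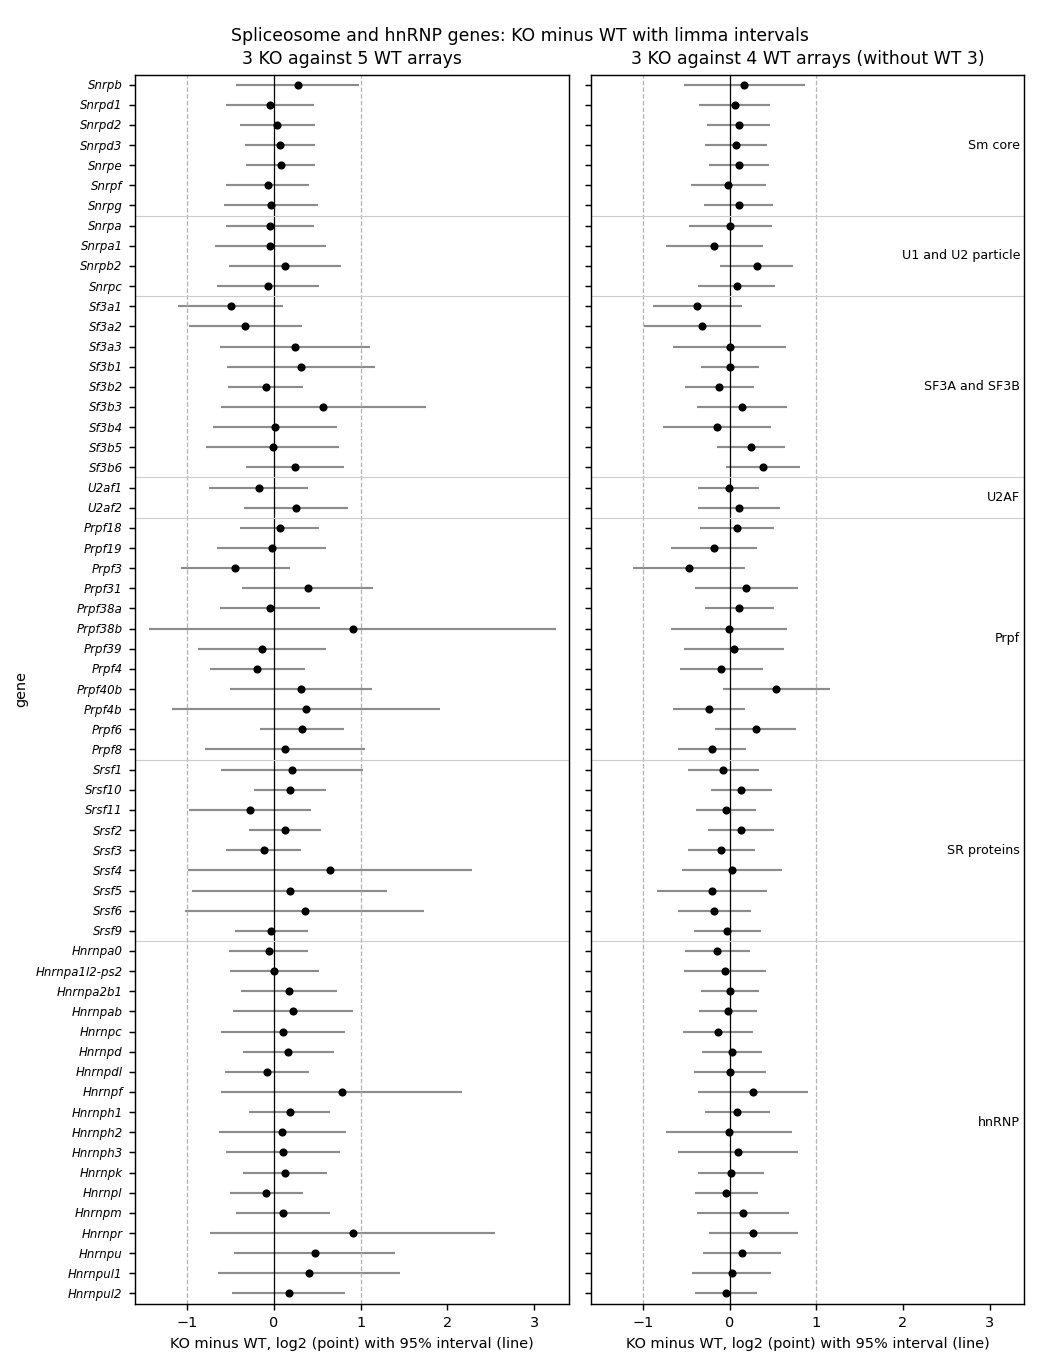
Difference between KO and WT (KO minus WT, log2, horizontal axis) for the 61 tested genes, one row each, grouped by role, with all arrays on the left and without WT array 3 on the right. Points are differences, lines are 95% limma intervals and dashed lines mark a 2-fold change. All 61 intervals cross 0 in both panels, and the longest, of Prpf38b, Hnrnpr and Srsf4, shorten once WT array 3 is left out.

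The Sm proteins form the ring that every major snRNP except U6 is built on. Of the 7 tested, 4 were above 0 and 3 below, with a median difference of 0.04, and without WT array 3 the median was 0.10, with 6 above 0. Snrpd3 read 14.78, 15.06 and 14.77 in KO and 14.83, 14.72, 14.82, 14.79 and 14.83 in WT, so the groups overlapped and even WT array 3 was in place, and its difference was 0.07 in both fits. Snrpb, which encodes SmB, was the most uneven Sm gene among the KO arrays, at 11.90, 12.68 and 11.33, against 11.91, 11.61, 11.29, 11.80 and 11.88 in WT. Its difference was 0.27, with a 95% interval of -0.43 to 0.98, and it was 0.17 without WT array 3 and -0.08 without KO array 2, whose value was the highest of the 8. The other 5, Snrpd1, Snrpd2, Snrpe, Snrpf and Snrpg, differed by -0.07 to 0.08, and by -0.02 to 0.11 without WT array 3, where Snrpd1 and Snrpg changed sign to 0.06 and 0.10.

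The U1 proteins Snrpa and Snrpc and the U2 proteins Snrpa1 and Snrpb2 sit on single snRNPs. Their median difference was -0.04, with 1 of 4 above 0, and 0.05 without WT array 3, with 3 of 4 above 0. Snrpb2 was 12.12, 12.20 and 12.36 in KO and 12.22, 11.95, 12.86, 11.75 and 11.72 in WT, where array 3 was the highest of all. Its difference was 0.12, and 0.31 without that one, with an interval of -0.11 to 0.73, and WT array 1 still lay among the KO arrays.

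SF3A and SF3B hold the U2 particle on the branch point, and their 9 genes had differences in both directions. The median difference was 0.01, and 0.00 without WT array 3, with 5 and 4 of 9 above 0. Sf3a1, the large SF3A subunit, had the smallest unadjusted p of all 61 genes in limma, 0.0941, with an adjusted p of 0.998. It read 14.41, 14.39 and 13.75 in KO and 14.42, 14.78, 15.19, 14.69 and 14.33 in WT. KO array 3 was the lowest of the 8, and the other KO arrays lay between WT arrays 5 and 1. The difference was -0.50, with an interval of -1.10 to 0.10, and -0.37 without WT array 3. The exact two-sided permutation p was 0.0893 in the full set of arrays and 0.200 without that one.

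Its partners in SF3A differed in direction from each other with all arrays. Sf3a2, which joins SF3A to the U2 core, was 11.24, 11.47 and 10.63 in KO and 10.93, 11.67, 11.51, 11.86 and 11.23 in WT, a difference of -0.33, and -0.31 without WT array 3, while Sf3a3 differed by 0.24, and by -0.0002 without WT array 3. KO array 3 was the lowest KO array in all of the SF3A trio.

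Sf3b6 is a small subunit of SF3B. It read 12.93, 12.77 and 13.32 in KO and 12.59, 12.72, 13.33, 12.49 and 12.71 in WT. Apart from WT array 3 the WT arrays all lay below the KO arrays, with KO array 2 and WT array 2 closest. The difference was 0.24, and 0.38 without WT array 3, with an interval of -0.04 to 0.81. The exact two-sided permutation p was 0.321 over 56 splits of all 8 arrays. Without WT array 3 it was 0.0286, the smallest that 35 splits can give, and 0.680 after Benjamini-Hochberg adjustment over the 34 named genes. Some of the named genes, Sf3b6 among them, were chosen for a small p in these same data. That adjustment therefore does not cover all tested genes.

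Sf3b1, the scaffold of SF3B and the subunit mutated in human disease, read 14.74, 14.79 and 14.74 in KO and 14.77, 14.71, 13.20, 14.66 and 14.87 in WT. All arrays but WT 3 lay close together. The difference was 0.31, and 0.00 without that array, with an interval of -0.33 to 0.34. Sf3b3 showed the same outlying array, at 12.10, 12.94 and 12.26 in KO and 12.40, 12.35, 10.14, 12.14 and 12.28 in WT, and its difference of 0.57 was 0.14 without it. Sf3b5, a small subunit, was high on WT array 3, at 15.12 against 13.63 to 13.98 in the other WT arrays, and its difference of -0.01 was 0.25 without that array. Sf3b2 and Sf3b4 differed by -0.10 and 0.01, and by -0.12 and -0.15 without WT array 3.

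U2AF is the pair that finds the end of the intron. U2af1, which reads the final AG, was 10.39, 10.58 and 10.40 in KO and 10.61, 10.41, 11.29, 10.49 and 10.36 in WT. Leaving out WT array 3, the groups shared 1 range and the difference of -0.18 became -0.01, with an interval of -0.37 to 0.34. U2af2, which binds the pyrimidine-rich tract, was 12.04, 12.20 and 11.56 in KO and 11.98, 11.71, 11.10, 11.64 and 11.97 in WT, with a difference of 0.25 and an interval of -0.35 to 0.86. Its difference was 0.11 without WT array 3, with an interval of -0.37 to 0.58.

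The Prpf genes encode factors first found as yeast pre-mRNA processing mutants, and most serve the tri-snRNP or the steps around catalysis. Of the 12 tested, 7 were above 0, with a median of 0.10, and 6 without WT array 3, with a median of 0.02. In the tri-snRNP, Prpf3, a U4/U6 protein, was 11.49, 11.46 and 11.36 in KO and 11.32, 12.58, 11.78, 11.78 and 11.94 in WT. The KO arrays sat close together, 4 of 5 WT arrays were above them and WT array 1 was below. The difference was -0.44, with an interval of -1.07 to 0.18, and the unadjusted p in limma was 0.144. The difference was -0.47 without WT array 3.

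Prpf6 bridges the particles of the tri-snRNP, and its difference was above 0. It read 10.58, 10.86 and 10.21 in KO and 10.23, 10.49, 10.14, 10.09 and 10.18 in WT, so KO arrays 1 and 2 were above every WT array and KO array 3 was within them. The difference was 0.32, with an interval of -0.16 to 0.81 and an exact permutation p of 0.0893, and 0.30 without WT array 3. Prpf31, another U4/U6 protein, differed by 0.39, and by 0.19 without WT array 3, and Prpf4 by -0.19 and -0.09.

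Prpf8, the scaffold around the catalytic centre, read 13.05, 13.03 and 12.66 in KO and 13.01, 13.08, 11.47, 13.26 and 13.12 in WT. Its difference of 0.13 was -0.21 without WT array 3, with an interval of -0.60 to 0.19. Prpf19, the ubiquitin ligase of the complex that stabilises the active spliceosome, differed by -0.03, and by -0.18 without WT array 3.

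The remaining Prpf genes held both the least settled values and a dim one. Prpf38b, a relative of the activation factor Prpf38a, was 11.93, 12.01 and 12.42 in KO and 12.24, 11.84, 7.55, 12.78 and 11.65 in WT, and its difference of 0.91, tied with Hnrnpr for the highest of the 61, was -0.01 without WT array 3. Prpf4b, a kinase that acts on tri-snRNP proteins, was 9.31, 9.42 and 8.91 in KO and 9.37, 9.61, 6.45, 9.43 and 9.39 in WT, with a difference of 0.37 that was -0.23 without WT array 3. Prpf40b, a U1-associated factor, was 6.59, 5.99 and 5.64 in KO and 5.81, 5.13, 6.66, 5.68 and 5.54 in WT, close to the array medians of 5.26 to 5.51. Its difference was 0.31, and 0.54 without WT array 3, with an interval of -0.08 to 1.16, and KO array 3 lay inside the range of the other WT arrays. Prpf18, Prpf38a and Prpf39 differed by 0.07, -0.05 and -0.14, and by 0.08, 0.11 and 0.05 without WT array 3, so the last pair changed sign.

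**Figure D2:**
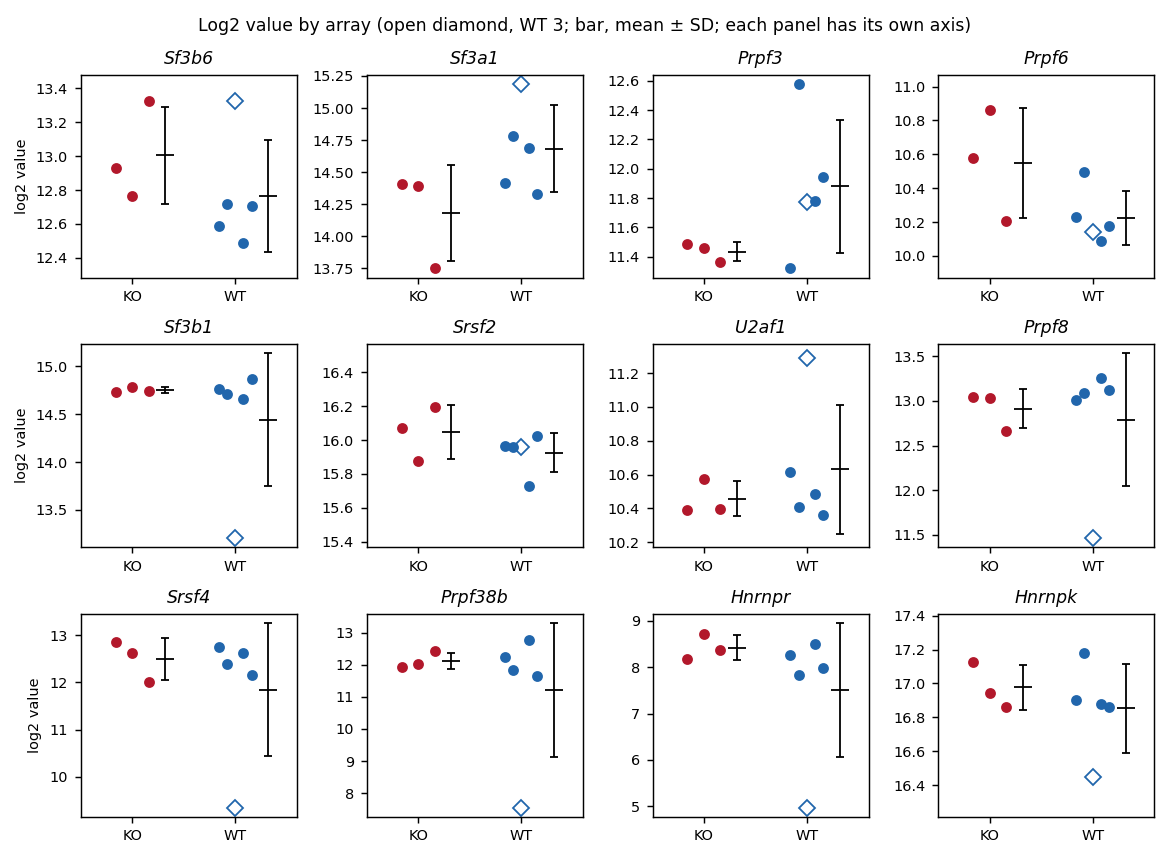
Log2 values (vertical axis, a separate scale in each panel) of 12 genes by array, with KO on the left in red and WT on the right in blue, WT array 3 as an open diamond, and mean ± SD beside each group (n = 3 KO, n = 5 WT). The KO arrays overlap the WT arrays in every panel, and in Sf3b1, Prpf8, Srsf4, Prpf38b and Hnrnpr WT array 3 lies far below all other arrays.

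SR proteins carry arginine and serine repeats that kinases phosphorylate. Of 10 members, 9 were tested, 6 of them above 0 with a median of 0.18, and 3 above 0 with a median of -0.04 without WT array 3. Srsf12 missed the filter on dim rows, at 3.59 to 4.09 over all arrays, below every array median. Srsf2, the SR gene mutated in human myeloid disease, read 16.07, 15.88 and 16.20 in KO and 15.97, 15.96, 15.96, 15.73 and 16.02 in WT. Its difference was 0.12, with an interval of -0.29 to 0.54, and 0.13 without WT array 3, and the groups overlapped.

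Srsf1, the founding member of the family, was 12.48, 12.49 and 12.07 in KO and 12.26, 12.39, 11.01, 12.43 and 12.59 in WT, and its difference of 0.21 was -0.07 without WT array 3. Srsf3 was 14.45, 14.30 and 14.59 in KO and 14.65, 14.59, 14.68, 14.30 and 14.62 in WT, with a difference of -0.12, an interval of -0.55 to 0.31, and a difference of -0.09 without WT array 3. Srsf10 was the SR gene with the smallest unadjusted p in limma, 0.343. It read 14.54, 14.48 and 14.38 in KO and 14.43, 14.43, 14.09, 14.28 and 14.20 in WT, so KO array 3 lay among the WT arrays, and the difference was 0.18, and 0.13 without WT array 3.

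Srsf4 and Srsf6, close relatives with long arginine-serine tails, both read over 2 log2 units lower on WT array 3 than on the other WT arrays. Srsf4 was 12.86, 12.62 and 12.01 in KO and 12.74, 12.38, 9.35, 12.61 and 12.15 in WT, with a difference of 0.65 that was 0.03 without that array. Srsf6 was 10.16, 10.48 and 10.30 in KO and 10.21, 10.43, 7.84, 10.64 and 10.67 in WT, with differences of 0.35 and -0.18. Srsf5, Srsf9 and Srsf11 differed by 0.18, -0.03 and -0.28, and by -0.20, -0.03 and -0.04 without WT array 3.

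The hnRNPs bind nascent transcripts and steer splicing, export and stability. Of 19 members 18 were tested, 15 of them above 0 with a median of 0.14. With WT array 3 left out there were 11 above 0, with a median of 0.01. Hnrnpll, known in lymphocytes for the splicing of Cd45, missed the filter, at 4.27 to 5.08. Hnrnpa1l2-ps2 is named as a pseudogene related to Hnrnpa1, and it is counted here because the rule goes by symbol. Its row, at 5.76 to 6.43, may report either gene, and which it reports was not tested.

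Several hnRNP genes were low on WT array 3. Hnrnpa2b1, a core protein of hnRNP particles, was 16.50, 16.53 and 16.51 in KO and 16.51, 16.40, 15.69, 16.50 and 16.61 in WT, so WT array 3 lay below all others. Its difference was 0.17, and without that array it was 0.01, with an interval of -0.33 to 0.34. Hnrnpk, a poly-C binding protein with roles in myeloid disease, was 17.12, 16.95 and 16.86 in KO and 16.90, 17.18, 16.45, 16.88 and 16.86 in WT, with a difference of 0.12 and an interval of -0.36 to 0.61, and a difference of 0.02 without WT array 3. Among the KO arrays the SD of Hnrnpa2b1 was 0.018 and that of Hnrnpk 0.13. Hnrnpc and Hnrnpab lay further out on WT array 3, at -1.16 and -1.17 from the mean of the other WT arrays. Their differences of 0.10 and 0.22 were -0.13 and -0.01 without it, and their SD among the KO arrays was 0.24 and 0.072.

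Hnrnpr had the highest difference of the hnRNPs, 0.91. It read 8.18, 8.72 and 8.36 in KO and 8.26, 7.83, 4.97, 8.50 and 7.99 in WT, so KO and WT overlapped and WT array 3 was more than 2 log2 units under every other array. Without it the difference was 0.27, with an interval of -0.24 to 0.79. Hnrnpf, a G-tract binding protein, was 13.41, 13.79 and 13.72 in KO and 13.66, 12.64, 10.83, 13.54 and 13.63 in WT, with differences of 0.78 and 0.27. Hnrnpu, which also organises chromatin, was 14.49, 14.39 and 13.92 in KO and 13.94, 14.15, 12.50, 14.13 and 14.28 in WT, with differences of 0.47 and 0.14. Hnrnph3 differed by 0.10 in both fits and was uneven in WT, at 5.81 to 7.10. The other hnRNPs differed by -0.09 to 0.40, the highest being Hnrnpul1, and by -0.14 to 0.15 without WT array 3, where Hnrnpul1 was at 0.03.

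Replicates lay closer together for these genes, at the median, than over all tested genes. The median SD was 0.20 among the KO arrays and 0.16 among the WT arrays other than array 3, beside 0.31 and 0.28 over all tested genes. With WT array 3 the median WT SD was 0.37, beside 0.45. These comparisons were not matched for how bright the genes were, so they do not show a trait of splicing genes. Among the KO arrays, array 2 was the highest for 32 of 61 genes, or 52.5%, beside 38.0% of all tested genes. Array 3 was the lowest KO array for 32 of 61 as well, beside 36.9%. Of the 10 genes in which KO array 2 exceeded the mean of the other KO arrays by over 0.5, 4 were U-particle or Sm genes (Snrpb, Snrpa1, Snrpa and Snrpc) and 4 belonged to SF3A or SF3B. KO array 3 lay over 0.5 under the mean of the other KO arrays in 11 genes. Of those 10, Snrpb, Sf3a3, Hnrnph2, Sf3a2 and Prpf31 were also among these 11. The share of all tested genes past 0.5 was not computed. KO array 2 was the highest KO array in 6 of 18 hnRNP genes and 3 of 9 SR genes.

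**Figure D3:**
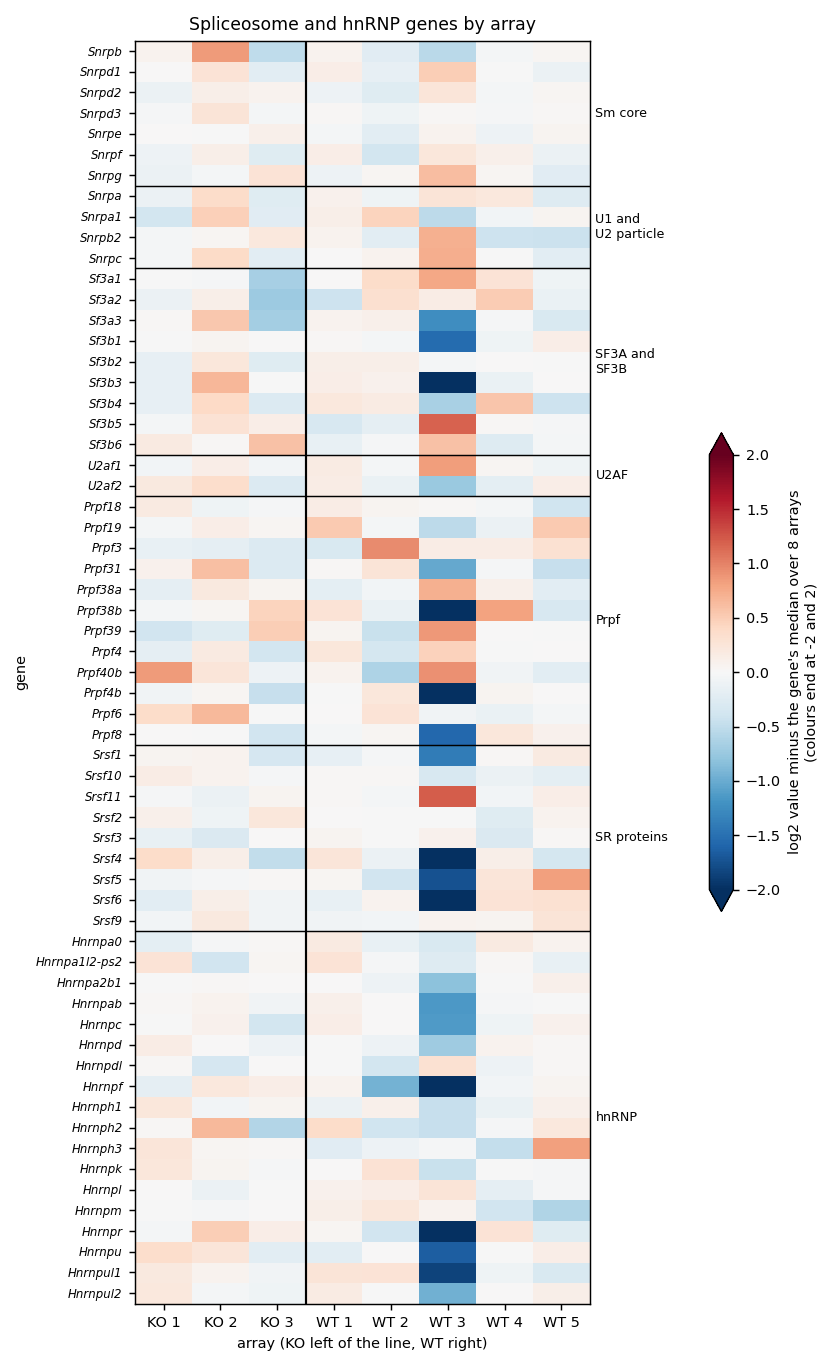
Each row is 1 of the 61 tested genes, grouped by role, and each column an array, with KO 1 to 3 left of the line and WT 1 to 5 right of it. Colour is the log2 value minus the gene's median over the 8 arrays. WT array 3 holds most of the strong colours, in both directions. In the U1 and U2 rows and the SF3 rows, KO 2 tends to lie above the gene's median and KO 3 below it.

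WT array 3 carried most of the variation, and it did so unevenly by role. It was the lowest of the 8 arrays for 29 of 61 genes and the highest for 18, beside 3620 and 2480 of all 9920 tested genes. It lay over 1 log2 unit under the average of the other WT arrays for 17 genes, or 27.9%, beside 22.5% of all tested genes, and over 1 above for 3, or 4.92%, beside 9.77%. On no other array did more than 2 of the 61 genes lie over 1 log2 unit from the mean of the rest of their group.

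By role, the median deviation of WT array 3 was 0.29 for the Sm genes and 0.51 for the U1 and U2 proteins, with 6 of 7 and 3 of 4 genes above the other WT arrays. It was -0.60 for the hnRNPs, with 15 of 18 below, and -0.24 for the SR genes. For all tested genes it was -0.15. Subunits of one assembly parted on this array. In SF3B, Sf3b3 was at -2.15 and Sf3b1 at -1.55, while Sf3b5 was at 1.30 and Sf3b6 at 0.70. Prpf38b was at -4.58 and its relative Prpf38a at 0.80. Srsf11 was at 1.19 and Srsf4 at -3.11. The U2AF pair read 0.82 for U2af1 and -0.73 for U2af2. Genes that stayed in place, within 0.1 of the other WT arrays, included Srsf9, Snrpd3, Srsf2, Hnrnph3 and Sf3a2. What sets this array apart was not tested.

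**Figure D4:**
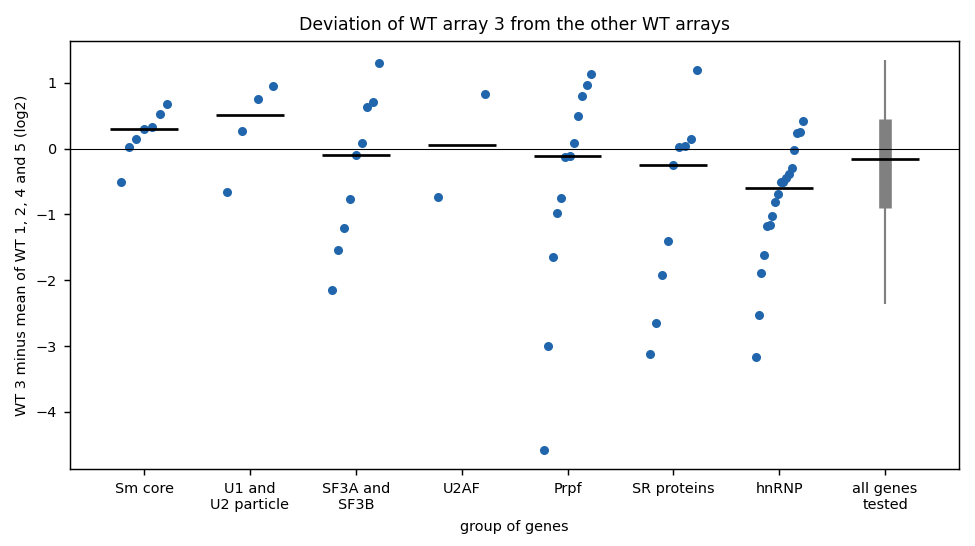
Vertical axis: log2 value on WT array 3 minus the mean of WT arrays 1, 2, 4 and 5. Each point is a gene, black lines are medians of each role, and the grey bar shows the 5th to 95th and 25th to 75th percentiles over all tested genes. Sm and U1 or U2 genes lie mostly above 0, and hnRNP genes mostly below.

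Splicing genes outside the symbol rule were read from a list of 85, of which 78 were tested. Of these 51 were above 0 and 27 below, and 0 passed with limma. An unadjusted p under 0.05 in limma was reached by 0 of 78, beside 2.84% of all tested genes. The median was 0.09, beside 0.04 over all tested genes. Without WT array 3 the median was 0.01, 0 passed and 2 of 78 had an unadjusted p under 0.05, beside 4.68% of all tested genes. They were Xab2, of the complex around Prpf19, and Lsm3, of the ring that binds U6. Xab2 was 10.72, 11.06 and 10.40 in KO and 11.22, 11.21, 10.86, 11.04 and 11.75 in WT, a difference of -0.49, and -0.58 without WT array 3, with an adjusted p of 0.989 in limma there. Lsm3 was 14.06, 13.86 and 14.17 in KO and 13.52, 13.87, 14.13, 13.35 and 13.43 in WT, with differences of 0.37 and 0.49 and the same adjusted p. KO and WT overlapped in both. The other genes taken by the naming rule were Crnkl1, Snw1, Snrnp48, Acin1, Plrg1, Snrnp70, Dhx16, Bud31 and Lsm8, whose differences ran from -0.26 to 0.85 with all arrays and from -0.35 to 0.68 without WT array 3.

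The kinases of SR proteins gave 6 tested genes, of which 0 passed with limma. With all arrays 0 of 6 had an unadjusted p under 0.05, beside 2.84% of all tested genes, and so few genes make a 0 uninformative. Srpk1 and Srpk2, the cytoplasmic kinases that send SR proteins to the nucleus, differed by 0.31 and 0.12, and by -0.05 and 0.00 without WT array 3. Of the nuclear CLK kinases, Clk2 was 10.26, 9.85 and 10.46 in KO and 10.69, 10.52, 12.15, 10.81 and 10.78 in WT. All 3 KO arrays lay below all 5 WT arrays, which is so in either direction for 3.09% of all tested genes. The difference was -0.80, with an adjusted p of 0.998 in limma, and -0.51 without WT array 3, with an unadjusted p of 0.0302 and an adjusted p of 0.989. Clk1, Clk3 and Clk4 differed by 0.18, 0.18 and 0.16, and by 0.21, 0.12 and 0.18 without WT array 3. In the snRNP assembly list, which holds the SMN complex and the enzymes that methylate Sm proteins, 9 genes were tested and 0 passed with limma. Likewise 0 of 9 had an unadjusted p under 0.05, beside 2.84% of all tested genes, which is as uninformative. The median of the list was -0.04. Its extremes with all arrays were Gemin2 at -0.74, and -0.45 without WT array 3, and Gemin6 at 0.42, and 0.14 without it. Smn1 was at -0.09 and Prmt5 at 0.09, and both changed sign without WT array 3, to 0.05 and -0.06.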

How the data were processed

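Biotin-labelled RNA of sorted cells was run on Affymetrix arrays, per the labels' protocols. The log2 values are those the authors deposited, 28846 rows for 8 arrays. Their log base was read from their range, 1.89 to 18.6. How they were background-corrected and normalized, and on which build, is not given in the sources used here. Symbols came from the platform annotation of the rows. Among the genes of the naming rule, Hnrnpa1 had no row with a symbol and was not analysed here.

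A gene with 1 symbol was tested if its row lay above the array median on at least 3 arrays, and the row of highest mean was kept. KO (3) was compared with WT (5) by limma 3.58.1 in R 4.3.3 (eBayes on a linear fit of the deposited values, two-sided tests), with Benjamini-Hochberg adjustment over 9920 genes. For named genes the absolute difference of means was also tested by exact permutation (two-sided, scipy 1.17.1), whose smallest p is 0.0179 with 8 arrays and 0.0286 with 7.

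The members and lists were chosen with earlier results of these data known. Named are the 10 genes of smallest p with all arrays and the 10 without WT array 3, 12 genes chosen for their roles, the 5 largest and 5 smallest deviations on WT array 3, and the 2 below the filter. From the wider splicing list the 6 of smallest p in each fit are named. Other members, and genes of the kinase and assembly lists, were named after their values were seen. The fit was tested on simulated data. The smallest root mean square difference between arrays was 0.574, so none was a duplicate. The number of arrays limits the precision. Alternatives were other filters, normalizations, variance models, array weights, a replicate block, other row choices and leaving out each array. Figures were drawn with matplotlib 3.10.9.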

Additional observations from a re-analysis of the deposited data

Results flagged for a closer look

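The values of 34 named genes in the 5 WT arrays were screened for a single distant array, by its gap to the nearest other array over the range of the group (above 0.71), and 16 were found, where chance gives about 1 in 20. WT array 3 was the outlying array in 14 of them. It was low in Hnrnpa2b1 (15.7), Hnrnpr (4.97), Hnrnpu (12.5), Prpf38b (7.55), Prpf4b (6.45), Prpf8 (11.5), Sf3b1 (13.2), Sf3b3 (10.1), Srsf1 (11.01), Srsf4 (9.35) and Srsf6 (7.84). It was high in Sf3b5 (15.1), Sf3b6 (13.3) and U2af1 (11.3). WT array 4 was low in Srsf2 (15.7) and Srsf3 (14.3), within 0.4 of the other WT arrays in both. Some of these genes were named for their deviation on WT array 3, so their flags follow from that choice. The same screen was not run over all tested genes, so the 16 flags are no result about splicing genes. WT array 3 lay over 1 log2 unit from the mean of the other WT arrays for 32.8% of the 61 genes, beside 32.3% of all tested genes.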

How the results depend on the processing

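Under all 17 alternatives, 0 of the tested genes and 0 of the spliceosome and hnRNP genes passed with limma. The median difference of 0.10 ran from 0.01 without WT array 3 to 0.14 without WT array 1 when 1 array was left out, and was 0.09 with quantile normalization, 0.11 with median centring, 0.04 with array weights, in which WT array 3 weighed 0.149, and 0.09 with the replicate block. Each of these moved from 0.10 by less than the spread of the per-array median, 0.11. That spread includes WT array 3 itself, at -0.26 against -0.04 to 0.08 on the other arrays. It therefore cannot show that leaving out WT array 3 matters little. Same-numbered KO and WT arrays had correlations of their deviations of 0.02, -0.02 and 0.14, so the numbers were not read as pairs, and the replicate block called 0 genes.

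Of 32 named and tested genes 12 changed sign in some setting. Array weights gave -0.14 for Prpf4b, -0.14 for Prpf8, 0.22 for Sf3b5, -0.0094 for Srsf1 and -0.10 for Srsf6, and quantile normalization 0.0061 for Sf3b5. The replicate block gave 0.061 for Prpf19, -0.12 for Snrpb2 and 0.040 for Srsf9. With 1 array left out, the differences ran from -0.0076 to 1.30 for Prpf38b, -0.23 to 0.55 for Prpf4b, -0.21 to 0.25 for Prpf8, -0.13 to 0.25 for Sf3b5, -0.073 to 0.34 for Srsf1 and -0.18 to 0.53 for Srsf6, each with its sign changed without WT array 3. They ran from -0.083 to 0.60 for Snrpb and -0.026 to 0.12 for Snrpd3, with the sign changed without KO array 2, and from -0.015 to 0.31 for Hnrnph3, without WT array 4. For Prpf19 and Srsf9, near 0, they ran from -0.18 to 0.085 and -0.11 to 0.021.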
